A study of Mus musculus with 12 samples.

Results

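The genes described here encode the nuclear-encoded subunits of the 5 oxidative phosphorylation complexes of mouse embryonic stem cells. They were chosen by symbol: Nduf genes of the a, b, c, s and v series, Sdha to Sdhd, Uqcr genes, Cox4 to Cox8 genes with a letter a to c, and Atp5 genes a to o, without pseudogene rows and without Ndufaf assembly factors. Of 80 matching symbols, 75 had 10 or more counts in at least 3 of the 12 libraries, out of 24421 gene rows. These 75 comprised 35 genes of complex I, 4 of complex II, 8 of complex III, 13 of complex IV and 15 of complex V, and all 75 were among the 15281 genes tested. Genes were assigned to complexes by symbol, so Ndufa4 was counted in complex I and Cox7a2l in complex IV by name alone. Just inside the count limit were Cox7b2, with 70 counts over all libraries, and Cox7a1, with 493. Left out were Ndufa4l2 with 57 counts, Cox8b with 34, Cox8c with 9, Cox6a2 with 2 and Ndufs5, which was listed at 0 in every library. The symbol rule does not catch some subunits, among them Cox4i1, Cyc1 and Ndufab1, which were followed as a separate list. Subunits encoded by mitochondrial DNA were not analysed here.

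Oxidative phosphorylation makes ATP in the inner mitochondrial membrane. Complexes I and II pass electrons from NADH and succinate to ubiquinone, complex III passes them on to cytochrome c, and complex IV hands them to oxygen. Complexes I, III and IV pump protons, and the returning protons turn the rotor of complex V, the ATP synthase. Pluripotent stem cells in serum use both glycolysis and respiration, and mTOR signalling is known to promote mitochondrial gene expression and respiration.

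RNA was measured in E14 mouse embryonic stem cells grown on gelatin in serum and LIF for 2 weeks. The 4 groups, with 3 libraries each, were Mettl3-knockout cells with INK128 (KO paused), wild-type cells with INK128 (WT paused), Mettl3-knockout cells without it (KO FBS) and wild-type cells without it (WT FBS). INK128, an inhibitor of the mTOR kinase, was used at 200 nM, a treatment that puts the cells in a slowly growing, paused state. Mettl3 encodes the catalytic subunit of the methyltransferase that writes N6-methyladenosine on messenger RNA. The labels do not say how many clones the knockout stands for, or whether replicates were separate cultures, so p-values measure the spread between these libraries, which may be partly technical. In bulk RNA of this kind, fewer cells of a type and less RNA per cell cannot be told apart.

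Libraries held 10615548 to 39566713 counts, and the 75 genes took 0.413% to 0.712% of the gene counts. Mettl3 transcript was present in all groups, at 28.8 to 31.4 CPM (counts per scaled library size) in KO paused, 33.6 to 39.2 in WT paused, 25.8 to 28.4 in KO FBS and 31.6 to 36.5 in WT FBS; the deleted part is not given, so this does not check the labels. The 4 Y-linked genes examined had 593 to 3124 counts per library in the KO groups and 0 to 7 in the WT groups, although both carry the same line name. This difference between the cells cannot be told apart from the knockout in any comparison of KO with WT. Summed CPM of 8 stem-cell markers was lower in KO, at 2495 to 2736 in KO paused, 4857 to 5241 in WT paused, 1958 to 2243 in KO FBS and 3771 to 4742 in WT FBS, with none of the 8 at 0 counts. Tfcp2l1 alone had 300 to 402 CPM in KO paused and 1409 to 1522 in WT paused. Sox2 in both conditions and Nanog in FBS overlapped between the genotypes, and the other stem-cell markers were each lower in KO. The 7 trophoblast markers summed to 53.5 to 61.2 CPM in KO paused, 30.6 to 47.3 in WT paused, 192 to 248 in KO FBS and 39.7 to 73.1 in WT FBS, and the 7 extraembryonic endoderm markers to 177 to 182, 32.3 to 46.3, 129 to 148 and 83.7 to 110 CPM in the same 4 groups. Of the trophoblast sum in KO FBS, Krt8 had 77.4 to 120 CPM and Krt18 34.4 to 54.0. Cdx2 overlapped between the genotypes in FBS, as did Tfap2c and Gata3 in paused cells. Of the endoderm sum, Col4a1 alone had 159 to 163 CPM in KO paused and 110 to 127 in KO FBS. It was higher in all KO than in all WT libraries of the same condition, as was Dab2 in paused cells. The low genes Gata4 and Sox7 were lower in all KO than in all WT libraries of both conditions, and Gata6 was so in FBS. The 5 neural markers summed to 64.6 to 77.8 CPM in KO paused, 112 to 155 in WT paused, 55.5 to 60.3 in KO FBS and 27.7 to 63.7 in WT FBS, with Sox1 alone at 106 to 142 CPM in WT paused, while Pax6, Nes and Six3 were each higher in all KO paused than in all WT paused libraries. The 6 fibroblast markers stayed at or below 13.0 CPM in sum. The part of these markers in the results below was not tested.

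WT FBS replicate 1 stood apart. Its rank correlation with the other WT FBS libraries was 0.968 and 0.971, against 0.994 to 0.997 for all other pairs within groups, and 71 of the 75 genes were lower in it than in both other WT FBS libraries. The median of those differences over the 75 genes was -0.58 on the log2 scale, against -0.04 over all genes tested. The share of all genes tested that were lower in it than in both others is not given. Over 2-fold from the mean of both others, in either direction, were 10 of the 75 genes and 2449 of the 15281 tested. The counts over the 75 genes on the relative scale are therefore given with and without this library.

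The levels of the complexes differed first in scale. Levels per kilobase were divided by the union of all annotated exons of a gene, not by the length of the transcript expressed. Differences in level between genes, and shares within a family, therefore depend on the annotation. Per kilobase of exon, the median gene of complex I was at 18.7 CPM in KO paused, 19.8 in WT paused, 21.7 in KO FBS and 26.9 in WT FBS. The median gene of complex V was at 40.3, 30.4, 47.8 and 47.2 CPM per kilobase in the same 4 groups. Atp5b, the catalytic beta subunit of the ATP synthase, had the highest level per kilobase of all 75 genes in every group, with 206 CPM per kilobase in KO paused, 232 in WT paused, 247 in KO FBS and 315 in WT FBS.

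For each library, the log2 CPM of each gene was set against its own mean over the 12 libraries, and the median was taken over each complex. WT FBS replicates 2 and 3 were the highest libraries for each of the 5 complexes, at 0.35 to 0.59. WT FBS replicate 1 lay far below them, at -0.22 for complex I, 0.07 for II, -0.28 for III, -0.16 for IV and -0.29 for V. KO paused libraries lay between -0.30 and -0.01 in every complex. In WT paused libraries complex II stayed above its mean, at 0.05 to 0.14, while complexes III and V were at -0.31 to -0.21 and -0.44 to -0.20. KO FBS replicate 1 was also below the other KO FBS libraries in every complex. Over all genes tested the same median stayed between -0.03 and 0.02 in every library.

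**Figure D1:**
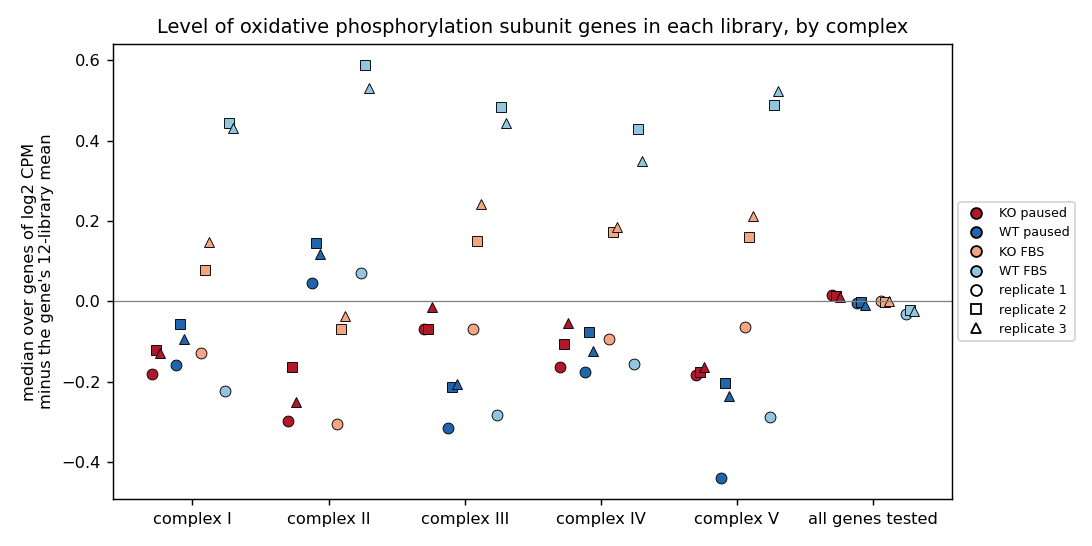
Level of each complex in each of the 12 libraries. The y axis gives the median over the genes of a complex (35, 4, 8, 13 and 15 genes, and all 15281 tested on the right) of log2 CPM minus the gene's mean over the libraries; colours are groups and marker shapes replicates. WT FBS replicates 2 and 3 are highest in each complex, WT FBS replicate 1 is not near them, and KO FBS replicate 1 lies below the other KO FBS libraries.

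The first comparison asked how the 75 genes changed on pausing in wild-type cells. Relative to the typical gene, 38 of the 75 were lower in WT paused than in WT FBS and 1, Cox6b2, was higher (edgeR quasi-likelihood test, Benjamini-Hochberg adjusted p under 0.05). Of all genes tested, 20.1% were called lower and 18.5% higher in this comparison. The median change of the 75 was -0.44 on the log2 scale, against -0.01 over all genes, and 72 of 75 estimates were below 0. By complex, 13 of 35 genes of complex I, 1 of 4 of II, 5 of 8 of III, 6 of 13 of IV and 13 of 15 of V were lower. Without WT FBS replicate 1, 70 of 75 were lower and Cox6b2 was still the only gene higher, against a background of 31.3% lower and 27.8% higher, and the median was -0.61. The lower genes were then 33 of 35 in complex I, 4 of 4 in II, 8 of 8 in III, 10 of 13 in IV and 15 of 15 in V. All 38 genes called lower remained so in that fit. With only the 2 WT groups in the fit, 14 were called lower, against 11.1% of the genes tested in it, and 18 of the 38 kept their call whichever of the 12 libraries was left out.

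In complex I, Ndufs8, an iron-sulfur subunit of the arm that delivers electrons to ubiquinone, had 11.5, 11.4 and 12.2 CPM in WT paused and 13.9, 28.1 and 27.4 in WT FBS. The groups did not overlap, and WT FBS replicate 1 was closest to the paused libraries. Its log2 fold change was -1.0 ± 0.22 (SE, n = 3 each, edgeR adjusted p = 0.0035). Ndufs1, the large iron-sulfur subunit of the NADH-oxidizing module, fell less, with 155, 162 and 164 CPM in WT paused and 174, 213 and 216 in WT FBS (-0.33 ± 0.09, adjusted p = 0.011). Ndufc2, an accessory subunit of the membrane arm, had 19.1, 21.2 and 21.8 CPM in WT paused and 22.7, 36.8 and 34.6 in WT FBS (-0.61 ± 0.15, adjusted p = 0.0074). These 3 calls held without any 1 library. Ndufv1, which binds NADH and the flavin, was not called, with a change of -0.25 ± 0.13 and an adjusted p of 0.15, and reached -0.42 with an adjusted p of 0.00089 without WT FBS replicate 1.

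In complex II, Sdhd, a membrane anchor of succinate dehydrogenase, had 49.3, 53.9 and 54.4 CPM in WT paused and 76.1, 101 and 96.7 in WT FBS. All paused libraries were lower, and the change was -0.80 ± 0.10 (adjusted p = 0.00015). The catalytic flavoprotein Sdha did not pass the test (-0.20 ± 0.08, adjusted p = 0.068), and neither did the iron-sulfur subunit Sdhb (-0.32 ± 0.21, adjusted p = 0.24), but both were called lower without WT FBS replicate 1 (-0.23 and -0.61, adjusted p = 0.014 and 2.8e-06). In complex III, Uqcrc1, a core protein, fell to 116, 129 and 122 CPM in WT paused, against 133, 194 and 198 in WT FBS (-0.52 ± 0.13, adjusted p = 0.0091). The Rieske iron-sulfur protein Uqcrfs1, which carries electrons towards cytochrome c, had 49.3, 54.1 and 47.2 CPM in WT paused and 53.0, 83.9 and 80.3 in WT FBS, with a single paused library above WT FBS replicate 1. Its change was -0.54 ± 0.14 (adjusted p = 0.012), and Uqcrh, the hinge protein, changed equally (-0.54 ± 0.13, adjusted p = 0.0083). Uqcrq, a small membrane subunit, had the greatest estimate of complex III at -1.16 ± 0.33, but its call was lost without WT paused replicate 1, WT FBS replicate 2 or WT FBS replicate 3.

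In complex IV, Cox6c and Cox7b, small subunits of cytochrome c oxidase, fell by 0.71 ± 0.16 and 0.59 ± 0.13 on the log2 scale (adjusted p = 0.0051 and 0.0040). Both held their calls without any 1 library. In complex V, Atp5l, a subunit of the membrane part, had 38.2, 43.8 and 42.6 CPM in WT paused and 51.1, 79.8 and 78.9 in WT FBS (-0.76 ± 0.15, adjusted p = 0.0020). For Atp5c1, the gamma subunit that forms the turning stalk, the values were 89.6, 92.4 and 98.9 CPM in WT paused and 126, 184 and 179 in WT FBS. All paused libraries were lower, and the change was -0.80 ± 0.12 (adjusted p = 0.00042). The catalytic alpha and beta subunits Atp5a1 and Atp5b changed less, by -0.45 ± 0.11 and -0.44 ± 0.11 (adjusted p = 0.0070 and 0.0094). Atp5b had 911, 1052 and 987 CPM in WT paused and 1116, 1431 and 1459 in WT FBS.

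Between KO paused and KO FBS, 16 of the 75 genes were lower and 5 higher, against 20.6% lower and 22.3% higher over all genes tested, so the share called lower was near the background. The median change was -0.20, against 0.01 over all genes, and 59 of 75 estimates were below 0. By complex, 5 of 35 genes of complex I, 1 of 4 of II, none of 8 of III, 5 of 13 of IV and 5 of 15 of V were lower. Without WT FBS replicate 1 these counts were 18, 2, 3, 8 and 11. The 5 genes called higher were Ndufb11, Cox6a1, Cox7a2l, Cox6b2 and Atp5f1. The calls of Ndufb11 (0.34 ± 0.12) and Cox6a1 (0.36 ± 0.13) held only without WT FBS replicate 1 or KO FBS replicate 3, and the other 3 held without any 1 library. The count of lower calls depended on which libraries were in the fit, and the cause was not tested. It was 41 with only the KO groups in the fit, against 31.0% of the genes tested in it. That was above the 14 of the WT fit of the same kind. Without WT FBS replicate 1, a library that is not in this contrast but enters the shared fit, the count was 42, against a background of 30.4%. The count of higher genes stayed at 5 in that fit, against 29.5%, and the median hardly moved without that library, at -0.22.

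Among the genes lower in KO paused, Cox5a, a matrix-side subunit of complex IV, had 72.7, 69.6 and 70.3 CPM in KO paused and 89.7, 105 and 99.7 in KO FBS. The groups did not overlap (-0.47 ± 0.12, adjusted p = 0.0075). Atp5h, a subunit of the peripheral stalk that holds the ATP synthase head still, had 57.8, 58.4 and 64.0 CPM in KO paused and 84.5, 90.8 and 97.2 in KO FBS (-0.60 ± 0.16, adjusted p = 0.0083). Its 25 tested neighbours on each side along chromosome 11 had a median change of -0.44. Cox5b, another peripheral subunit of complex IV, had 52.0, 52.8 and 55.9 CPM in KO paused and 72.1, 88.4 and 90.4 in KO FBS (-0.64 ± 0.15, adjusted p = 0.0036). These 3 calls held without any 1 library. In complex I the greatest estimates were those of 3 accessory subunits of the membrane arm, Ndufa11 (-0.61), Ndufb6 (-0.57) and Ndufa10 (-0.42). Each of these calls was lost without KO paused replicate 1 or KO FBS replicate 3, that of Ndufa11 also without KO paused replicate 2, that of Ndufa10 also when KO FBS replicate 2 or KO paused replicate 3 was left out, and that of Ndufb6 without any of the 6 KO libraries. Uqcrfs1 and Uqcrc1 did not pass the test in knockout cells, with changes of -0.10 ± 0.14 and -0.30 ± 0.13 (adjusted p = 0.61 and 0.088), and Atp5a1 and Atp5b did not either, at -0.14 ± 0.11 and -0.27 ± 0.11 (adjusted p = 0.31 and 0.076). Without WT FBS replicate 1, Uqcrc1 and Atp5b were called lower, at -0.31 and -0.28.

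**Figure D2:**
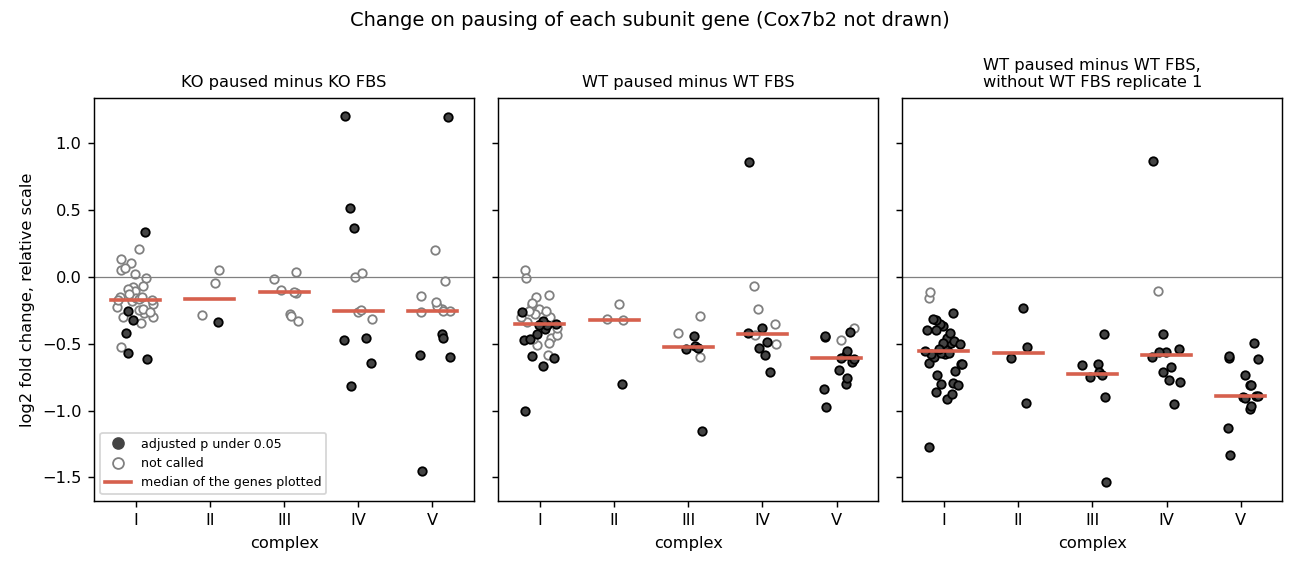
Log2 fold change on pausing, relative to the typical gene, for each gene of complexes I to V (x axis) in KO cells, in WT cells, and in WT cells without WT FBS replicate 1. Filled points have an adjusted p under 0.05, red bars are medians of the genes plotted, and the very low gene Cox7b2 is not drawn. In WT cells 38 genes are lower, or 70 without WT FBS replicate 1, and in KO cells 16.

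Cox6b2, an isoform of a complex IV subunit known from testis, went against most others in both genotypes. It had 10.9, 12.7 and 8.20 CPM in KO paused and 4.62, 4.46 and 4.63 in KO FBS. In WT cells it had 11.5, 11.3 and 11 CPM in WT paused and 6.83, 6.21 and 5.76 in WT FBS. All 6 paused libraries were above all 6 FBS libraries. The log2 fold change was 1.20 ± 0.15 in KO cells and 0.86 ± 0.15 in WT cells (adjusted p = 5.9e-05 and 0.0012), both calls held without any 1 library, and the difference between both effects did not pass the test (0.35 ± 0.21, adjusted p = 0.30). Its ubiquitous paralogue Cox6b1 had a change of -0.26 ± 0.14 in KO cells and -0.38 ± 0.14 in WT cells (adjusted p = 0.15 and 0.047). The WT call of Cox6b1 was lost without any 1 library except WT FBS replicate 1 and KO FBS replicate 1, and without WT FBS replicate 1 it was called lower in KO cells too, at -0.28. Per kilobase of exon, Cox6b2 made up 11.1% ± 2.3 of the summed level of both isoforms in KO paused, 13.5% ± 1.7 in WT paused, 4.34% ± 0.49 in KO FBS and 6.44% ± 1.87 in WT FBS (SD, n = 3 each).

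The 3 genes for the c subunit, whose mature proteins are identical and form the rotor ring of the ATP synthase, did not move alike. Atp5g1 had 34.0, 37.2 and 41.6 CPM in KO paused and 88.6, 106 and 114 in KO FBS. The corresponding values of Atp5g1 in WT cells were 38.6, 44.2 and 43.3 CPM in WT paused and 37.7, 104 and 104 in WT FBS, where replicate 1 was below all paused libraries. Its change was -1.45 ± 0.28 in KO cells and -0.97 ± 0.28 in WT cells (adjusted p = 0.0013 and 0.017). The WT call was lost without WT paused replicate 1, WT FBS replicate 2 or WT FBS replicate 3. Atp5g3 fell by 0.59 ± 0.20 in KO cells and 0.84 ± 0.20 in WT cells (adjusted p = 0.031 and 0.0064), the KO call being lost without any 1 of the KO libraries except KO FBS replicate 1. Atp5g2 was not called in KO cells (-0.03 ± 0.10, adjusted p = 0.83), and fell in WT cells by 0.41 ± 0.10 (adjusted p = 0.0060). Per kilobase of exon, Atp5g1 made up 6.73% ± 0.48 of the 3 genes' summed level in KO paused, 8.82% ± 0.23 in WT paused, 14.1% ± 0.40 in KO FBS and 10.5% ± 3.1 in WT FBS (SD, n = 3 each). The exon lengths used were 4912 bases for Atp5g1, 1675 for Atp5g2 and 2181 for Atp5g3, and the size of the shares depends on them. The summed level was 114 ± 5.0 CPM per kilobase in KO paused, 97.1 ± 7.1 in WT paused, 148 ± 15 in KO FBS and 151 ± 35 in WT FBS.

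Counts were next set against ERCC spike-in RNA, which was added to RNA from equal numbers of cells, so that they stand for RNA per cell; the spike-in does not correct for losses before it was added. On this scale the median of all genes tested moved by -0.72 on pausing in KO cells and by -1.05 in WT cells. Of the 75 genes, 63 were lower in KO paused than in KO FBS, against 45.7% of all genes, and 73 were lower in WT paused than in WT FBS, against 68.8%. The medians of the 75 were -0.95 in KO cells and -1.47 in WT cells, so they lay below the median of all genes in both. In WT cells all genes of complexes I, II, III and V were called lower, with medians of -1.39, -1.36, -1.56 and -1.63, and the 2 genes not called were Cox6b2 and Cox7b2. No gene was called higher on pausing on this scale, where 2.45% of all genes were in KO cells and 1.15% in WT cells. Of the genes that were higher on the relative scale, Ndufb11, Cox6a1 and Cox7a2l turned negative in KO cells (-0.41, -0.38 and -0.21) and Cox6b2 in WT cells (-0.19), while in KO cells Cox6b2 and Atp5f1 stayed above 0 without passing the test (0.49 and 0.46, adjusted p = 0.22 for each). In the authors' deposited table of log2 values described as normalized to cell number, which holds 74 of the 75 genes, complex medians of the authors' values, centred on each gene's mean, were between -0.69 and -0.08 in KO paused libraries and between -1.35 and -0.30 in WT paused libraries. KO FBS replicate 1 was at -0.50 to -0.26, inside the range of KO paused, and KO FBS replicates 2 and 3 at 0.52 to 1.06. WT FBS libraries were between -0.0013 and 1.05. The KO FBS libraries also differed in gene counts per ERCC count, with 47.4, 93.5 and 64.6, against 36.5, 40.3 and 38.2 in KO paused.

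The next comparisons set knockout against wild-type cells. In FBS, 24 of the 75 genes were lower in KO and 1, Cox7b2, was higher, against 28.8% lower and 29.2% higher over all genes tested, so the share called lower was near the background. The median was -0.23, against -0.03 over all genes. Without WT FBS replicate 1 the count of lower genes was 60 and the median -0.43, against a background of 35.5%, and without KO FBS replicate 1 it was 12, against 25.3%. In paused cells 10 genes were lower in KO and 11 higher, against 24.7% lower and 27.7% higher over all genes, with a median of 0.02. Without WT FBS replicate 1, which is in the fit but in neither of these groups, 21 were lower and 24 higher, against 32.0% and 33.3%. On the per-cell scale, 2 genes were lower and 1 higher in KO FBS, against 9.81% and 19.1% of all genes, and none was lower and 12 were higher in KO paused, against 5.62% and 27.1%.

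The genes that were lower in KO lay in part on chromosome 1. It holds 6 of the 75 genes, among them Ndufs1, Ndufa10 and Sdhc, and 5 of the 6 were lower in KO FBS (43.7% of all tested genes of that chromosome were) and 6 of 6 in KO paused (51.4% were). Of the 69 members on other chromosomes, 19 were lower in KO FBS and 4 in KO paused, where 27.9% and 23.1% of tested genes there were lower. The median of all tested chromosome 1 genes was itself shifted, by -0.27 in FBS and by -0.45 in paused cells. Such shifts were not limited to chromosome 1. Chromosome 8 was at -0.44 in both conditions, and its 2 members, Ndufa13 and Ndufb7, were not called. Chromosome 11 was at 0.19 in FBS and chromosome 3 at 0.21 in paused cells. Ndufs1 (chr1:63143596-63176833, minus strand, GRCm38) had 87.3, 91.4 and 90.5 CPM in KO paused and 155, 162 and 164 in WT paused. In FBS it had 95.9, 101 and 105 CPM in KO FBS and 174, 213 and 216 in WT FBS. No KO library reached any WT library, and the change was -0.84 ± 0.09 in paused cells and -1.0 ± 0.09 in FBS (adjusted p = 7.9e-06 and 1.5e-06). The 25 tested genes on each side of it had median changes of -0.59 and -0.65. Its exons overlap those of Eef1b2 on the opposite strand, and the strand setting of the counting is not given in the sources used here.

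Ndufa10, an accessory subunit of the membrane arm of complex I on the same chromosome, was at 47.8, 50.3 and 49.2 CPM in KO paused and 72.0, 80.1 and 92.8 in WT paused. In FBS it was at 57.2, 68.7 and 70.7 CPM in KO FBS and 93.8, 120 and 123 in WT FBS. KO libraries were lower in both conditions (-0.74 ± 0.13 and -0.78 ± 0.12, edgeR adjusted p = 0.00036 and 0.00019), while the neighbours' medians were -0.23 and -0.36. The part of the chromosome in these differences was not tested. Off chromosome 1, Ndufb4, an accessory subunit of the membrane arm of complex I, had 12.7, 13.96 and 12.7 CPM in KO paused and 19.7, 20.6 and 20.6 in WT paused, and in FBS 15.9, 15.8 and 18.5 in KO FBS and 19.99, 29.4 and 29.5 in WT FBS. It was lower in all KO libraries of both conditions (-0.63 ± 0.14 and -0.67 ± 0.14, adjusted p = 0.0024 and 0.0011), beside neighbours with medians of 0.05 and 0.17. The catalytic subunit Sdha had 176, 189 and 180 CPM in KO paused and 210, 231 and 228 in WT paused, and in FBS 169, 195 and 197 in KO FBS and 259, 245 and 265 in WT FBS. Its change was -0.30 ± 0.08 in paused cells and -0.46 ± 0.08 in FBS (adjusted p = 0.0089 and 0.00045), and the paused value turned to 0.09 on the per-cell scale. Sdhc, a membrane anchor on chromosome 1, was also lower in KO, so that 3 of the 4 complex II genes were lower in KO FBS, with Sdhb called at -0.55 ± 0.20 (adjusted p = 0.037) and lost without KO FBS replicates 1, 2 or 3 or WT FBS replicates 2 or 3 (-0.83 without WT FBS replicate 1).

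The members higher in KO paused cells than in WT paused cells included Uqcrfs1 of complex III, with 79.1, 81.5 and 81.3 CPM in KO paused and 49.3, 54.1 and 47.2 in WT paused. The groups were far apart (0.68 ± 0.14, adjusted p = 0.0016), and in FBS the difference did not pass the test (0.24 ± 0.14, adjusted p = 0.15). Ndufc2 had 31.8, 31.3 and 33.8 CPM in KO paused and 19.1, 21.2 and 21.8 in WT paused (0.64 ± 0.15, adjusted p = 0.0032). Cox8a, a small subunit of complex IV, had 64.5, 65.7 and 61.8 CPM in KO paused and 44.5, 48.4 and 43.9 in WT paused (0.49 ± 0.14, adjusted p = 0.011). These 3 calls held without any 1 library. For 7 of the 10 lower calls and 6 of the 11 higher calls that was so.

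**Figure D3:**
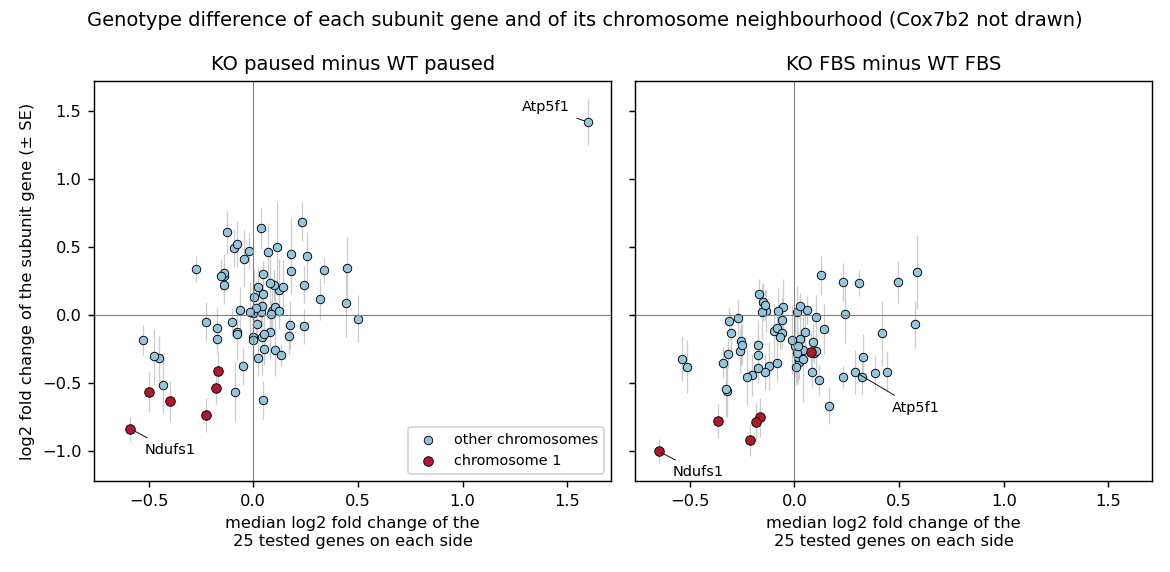
Difference between KO and WT for each gene (y axis, log2 fold change ± SE) against the median difference of the 25 tested genes on each side along the chromosome (x axis, log2), in paused cells and in FBS; near a chromosome end fewer neighbours were used. Chromosome 1 genes, in red, lie below 0, with Ndufs1 lowest, and Atp5f1 stands alone at 1.42 in paused cells beside neighbours with a median of 1.60.

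Whether pausing acted differently in the genotypes was tested as the difference of both effects, KO minus WT. The difference was above 0 for 66 of the 75 genes, with a median of 0.25 against 0.06 over all genes tested; 5 genes were called above 0 and 1 below, against 8.83% and 8.89% of all genes. Without WT FBS replicate 1 the difference was called above 0 for 50 genes and below 0 for 1, against 24.2% and 17.3% of all genes. Those 50 comprised 19 of 35 genes of complex I, 3 of 4 of II, 8 of 8 of III, 7 of 13 of IV and 13 of 15 of V. Without KO FBS replicate 1, 3 were called above 0 and 1 below, against 6.03% and 6.55%. The per-cell fit called 1 gene above and 1 below, against 3.04% and 1.66%. The count for the complexes as a whole therefore rests on whether WT FBS replicate 1 is taken in.

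Atp5f1, the b subunit of the peripheral stalk of the ATP synthase (chr3:105942698-105960099, minus strand, GRCm38), differed most. It had 328, 334 and 340 CPM in KO paused and 140, 144 and 152 in KO FBS. In WT cells it had 119, 132 and 124 CPM in WT paused and 129, 230 and 224 in WT FBS. KO paused was above every other library, and of the others, WT paused overlapped only with WT FBS replicate 1. Pausing gave 1.20 ± 0.17 in KO cells and -0.64 ± 0.17 in WT cells, and the difference was 1.84 ± 0.23 (adjusted p = 0.00030, held without any 1 library, and 2.13 ± 0.46 per cell with an adjusted p of 0.00037). Its neighbours moved as well: the 25 tested genes on each side had a median change of 1.13 on pausing in KO cells, -0.02 in WT cells, and 1.19 for the difference. Its exons overlap Wdr77 on the opposite strand.

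Cox7a2l, which is known to link complexes III and IV into supercomplexes, had 87.2, 90.1 and 94.3 CPM in KO paused and 63.6, 62.5 and 63.7 in KO FBS. In WT cells it had 69.4, 76.3 and 74.2 CPM in WT paused and 76.6, 82.1 and 71.8 in WT FBS. It was higher in all KO paused libraries than in any other, while the WT groups overlapped. The change was 0.52 ± 0.08 in KO cells and -0.07 ± 0.08 in WT cells, and the difference was 0.59 ± 0.11 (adjusted p = 0.0033, held without any 1 library). On the per-cell scale the difference was 0.88 ± 0.45 with an adjusted p of 0.32. Per kilobase of exon it made up 57.0% ± 2.5 of the summed Cox7a1, Cox7a2 and Cox7a2l level in KO paused, 49.1% ± 0.59 in WT paused, 42.2% ± 1.6 in KO FBS and 43.1% ± 9.2 in WT FBS (SD, n = 3 each).

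Atp5e, the epsilon subunit of the central stalk, had 32.7, 32.6 and 33.6 CPM in KO paused and 25.4, 28 and 32.4 in KO FBS. In WT cells it had 20.5, 25.1 and 19.5 CPM in WT paused and 26.1, 37.1 and 41.2 in WT FBS. It fell in WT cells (-0.70 ± 0.16, adjusted p = 0.0050) and was not called in KO cells (0.20 ± 0.15, adjusted p = 0.30), and the difference was 0.90 ± 0.22 (adjusted p = 0.015), lost without WT paused replicate 3. For Cox6a1, a complex IV subunit, the difference was 0.61 ± 0.19 (adjusted p = 0.044), with 75.7, 73.9 and 74.9 CPM in KO paused and 53.3, 56.7 and 64.3 in KO FBS. The WT values of Cox6a1 were 48.3, 58.6 and 55.1 CPM in WT paused and 48.9, 70.1 and 71.7 in WT FBS. Sdhd had a difference of 0.46 ± 0.14 (adjusted p = 0.045), with 66.5, 64.3 and 63.1 CPM in KO paused and 78.9, 80.4 and 86.2 in KO FBS, beside the WT values above. The Cox6a1 call held only without WT FBS replicate 1 or KO FBS replicate 3, and the Sdhd call only without WT FBS replicate 1, so these calls sat at the threshold.

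**Figure D4:**
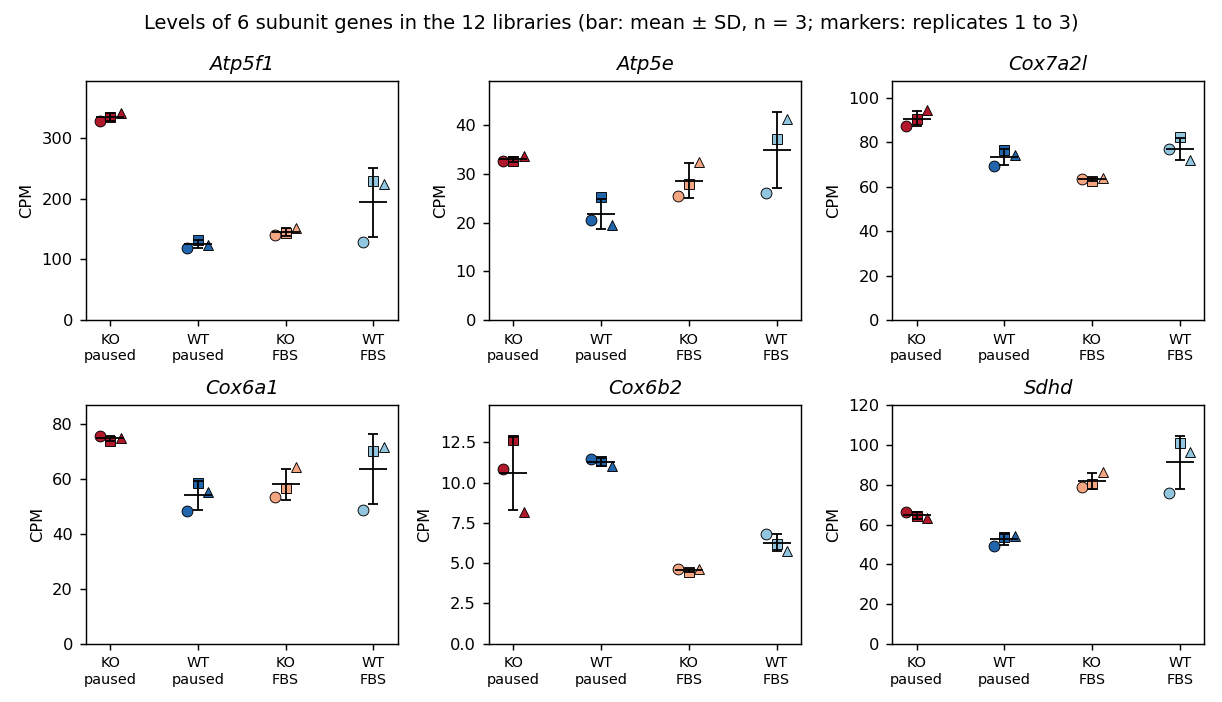
CPM (y axis, from 0) of 6 genes in the 12 libraries, by group, with the mean ± SD of 3 libraries; marker shapes are replicates 1 to 3. Atp5f1 and Cox7a2l are highest in KO paused, Cox6b2 is higher in both paused groups than in both FBS groups, and WT FBS replicate 1 is the lowest WT FBS library for Atp5f1, Atp5e, Cox6a1 and Sdhd.

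Cox7b2, a complex IV isoform at the edge of detection, had 1, 2 and 3 counts in KO paused and 19, 14 and 25 in KO FBS. Its WT libraries had 2, 2 and 1 counts in WT paused and 0, 1 and 0 in WT FBS. Only KO FBS was above a few counts. Summed over 3 libraries and scaled by library size, the ratio of KO paused to KO FBS was 0.113 (95% interval 0.0400 to 0.262) and that of KO FBS to WT FBS 52.5 (9.05 to 2108), intervals that cover counting error only. The muscle isoform Cox7a1 was also low, with 1.14 ± 0.16 CPM in KO paused, 1.73 ± 0.33 in WT paused, 1.99 ± 0.10 in KO FBS and 2.23 ± 0.29 in WT FBS (SD, n = 3 each), and fell on pausing in KO cells (-0.82 ± 0.20, adjusted p = 0.0056).

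Promoter windows of 300 bases, 250 before and 50 after the RefSeq start site (GRCm38.p6), were found for 65 of the 75 genes. They were searched on both strands for letters that the factors NRF1 (GCGCA, any base, then GCGC), ETS family members such as GABPA (CCGGAAG), YY1 (AAGATGGC) and estrogen-related receptors (TCAAGGTCA) are known to bind. The NRF1 letters were in 16 of the 65 windows (24.62%), against 5.188% of the 27025 genes of the table. The ETS letters were in 16 (24.62%, against 9.928%), those of YY1 in 10 (15.38%, against 3.19%) and those of estrogen-related receptors in 2 (3.077%, against 0.4662%). At least 1 of the NRF1, ETS and YY1 strings was in 36 of the 65 windows (55.38%, against 16.39%). The 27025 genes are not limited to the 15281 tested here, while all 65 passed the count limit. The share over tested genes alone is not given, so these contrasts may not be particular to the subunits. A match is a description of letters, not of a bound site. The 250 bases before the start are printed here for the 3 c subunit genes, which changed unequally, for Cox6b2, which went against the others, and for Sdhd and Cox6a1, whose pausing effects differed between genotypes. Matches are in capitals. In the 250 bases shown, Sdhd has 1 NRF1 and 1 ETS match, Cox6a1 2 NRF1 and 1 ETS match, and Atp5g2 1 NRF1 match. Atp5g3 has 1 match there to the letters of estrogen-related receptors, and Atp5g1 and Cox6b2 have none of these letters. The ETS matches and the estrogen-related receptor match are on the opposite strand. The 300-base windows also hold estrogen-related receptor letters in Sdhd and NRF1 letters in Atp5g3 that do not lie wholly in the bases shown. All 6 genes are on the minus strand, and the windows are given 5′ to 3′ along the gene.
Atp5g1, chr11:96075632-96075881: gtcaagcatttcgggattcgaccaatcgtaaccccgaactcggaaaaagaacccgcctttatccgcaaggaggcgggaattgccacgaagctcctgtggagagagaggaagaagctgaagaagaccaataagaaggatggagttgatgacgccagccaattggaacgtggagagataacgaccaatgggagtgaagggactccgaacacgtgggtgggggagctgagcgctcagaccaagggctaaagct
Atp5g2, chr15:102671048-102671297: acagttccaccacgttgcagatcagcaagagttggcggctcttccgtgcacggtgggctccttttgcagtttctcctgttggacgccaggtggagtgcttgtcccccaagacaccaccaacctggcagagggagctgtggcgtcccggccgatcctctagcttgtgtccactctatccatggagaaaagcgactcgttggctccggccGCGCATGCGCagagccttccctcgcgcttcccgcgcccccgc
Atp5g3, chr2:73911327-73911576: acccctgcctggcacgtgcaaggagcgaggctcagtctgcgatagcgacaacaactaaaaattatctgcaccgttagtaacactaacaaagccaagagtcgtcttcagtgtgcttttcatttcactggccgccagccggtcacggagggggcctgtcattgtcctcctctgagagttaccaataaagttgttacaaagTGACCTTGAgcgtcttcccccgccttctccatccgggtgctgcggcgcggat
Cox6b2, chr7:4753095-4753344: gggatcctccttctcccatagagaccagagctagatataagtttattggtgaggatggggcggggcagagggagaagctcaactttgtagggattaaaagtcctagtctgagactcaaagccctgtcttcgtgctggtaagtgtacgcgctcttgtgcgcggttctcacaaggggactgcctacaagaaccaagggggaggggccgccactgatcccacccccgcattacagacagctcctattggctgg
Sdhd, chr9:50603850-50604099: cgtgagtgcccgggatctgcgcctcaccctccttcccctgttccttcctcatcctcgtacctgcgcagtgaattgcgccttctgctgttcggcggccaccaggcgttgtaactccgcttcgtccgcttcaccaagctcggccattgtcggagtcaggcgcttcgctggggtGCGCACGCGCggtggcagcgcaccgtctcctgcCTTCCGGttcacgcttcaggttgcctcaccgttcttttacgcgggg
Cox6a1, chr5:115348959-115349208: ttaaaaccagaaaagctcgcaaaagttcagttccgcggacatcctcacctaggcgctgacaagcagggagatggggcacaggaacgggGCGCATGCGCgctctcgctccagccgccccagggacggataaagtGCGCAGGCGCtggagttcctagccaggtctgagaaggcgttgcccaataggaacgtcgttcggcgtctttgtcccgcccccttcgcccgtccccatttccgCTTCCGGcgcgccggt

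The genes of related lists were followed in the same fit; those lists were drawn up with earlier results of these data known. Of 16 enzymes of the tricarboxylic acid cycle and its entry, 6 were lower and 2 higher in KO paused than in KO FBS, and 12 were lower and none higher in WT paused than in WT FBS (10 and 15 lower without WT FBS replicate 1). Of all genes tested, 20.6% were lower in KO cells and 20.1% in WT cells, or 30.4% and 31.3% without that library, which is the background for each list here. Citrate synthase (Cs) fell alike in both genotypes, by 0.70 ± 0.11 in KO cells and 0.72 ± 0.11 in WT cells (edgeR adjusted p = 0.00023 and 0.00036). A list of 8 genes outside the symbol rule held subunits and also cytochrome c and the ATP synthase inhibitor Atpif1. Of these 8, 2 were lower on pausing in KO cells and 2 in WT cells, or 3 and 6 without WT FBS replicate 1. The 2 were in both genotypes cytochrome c (Cycs), at -0.86 ± 0.27 and -1.21 ± 0.27, and Usmg5, a small ATP synthase subunit. Cox4i1, a core-associated subunit of complex IV, had 261, 291 and 274 CPM in KO paused and 209, 231 and 236 in KO FBS, and in WT cells 205, 211 and 238 in WT paused and 216, 290 and 284 in WT FBS. Its difference of both pausing effects was 0.56 ± 0.16 (adjusted p = 0.030). Of 15 regulators of mitochondrial genes, 1 was lower and none higher on pausing in KO cells, and 1 was lower and 1 higher in WT cells, where the mitochondrial transcription factor Tfam fell by 0.43 ± 0.16 (adjusted p = 0.049), or by 0.67 without WT FBS replicate 1. In that fit 6 regulators were lower in KO cells and 5 in WT cells, with 1 higher in each. Nrf1, Gabpa and Yy1, whose letters were searched above, did not pass the test on pausing in either genotype. Their changes were 0.09, -0.23 and -0.25 in KO cells and 0.20, -0.14 and -0.20 in WT cells. The WT value of Nrf1 rests on WT FBS replicate 1, with 66.8, 64.4 and 65.0 CPM in WT paused and 31.1, 67.5 and 71.0 in WT FBS. Without WT FBS replicate 1 Gabpa and Yy1 were called lower in KO cells (-0.24 and -0.26) and in WT cells (-0.28 and -0.41). Of 11 carriers and channels that move metabolites across the mitochondrial membranes, 4 were lower and 1 higher on pausing in KO cells, and 5 were lower in WT cells, or 7 and 9 lower without that library.

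Assembly factors help to build the complexes and are not part of them. Of 32 factors for complexes II to V, 10 were lower and 8 higher in KO FBS than in WT FBS, near the background of 28.8% and 29.2%. Without WT FBS replicate 1, 13 were lower and 9 higher, against 35.5% and 33.5%. On pausing in KO cells 10 were lower and 5 higher, against 20.6% and 22.3% of all genes. Tmem70, needed to assemble the ATP synthase, had 26.3, 30.3 and 29.2 CPM in KO paused, 17.9, 19.6 and 17.3 in WT paused, 68.9, 67.5 and 69.6 in KO FBS and 18.5, 22.3 and 21.1 in WT FBS. KO FBS stood far above the other 3 groups, with a difference from WT FBS of 1.73 ± 0.09 (adjusted p = 5.3e-08) and a change on pausing of -1.26 ± 0.09 in KO cells (adjusted p = 1.1e-06). Of 14 complex I factors, 5 were higher and 1 lower in KO paused than in WT paused, against 27.7% and 24.7% of all genes. Ndufaf4 was higher in KO in both conditions, by 1.07 ± 0.12 in paused cells and 0.74 ± 0.12 in FBS (edgeR adjusted p = 1.6e-05 and 0.00020).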

How the data were processed

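The authors deposited raw counts by gene symbol, with 92 rows for ERCC spike-ins, and a second table of log2 values described in its name as normalized to cell number. In 3390 well-counted genes the deposited log2 values equalled log2 of the count plus 0.5 plus a constant per library. Per the labels' protocols, RNA came from 200000 cells per sample, ERCC RNA was added to it, and directional libraries were made from polyadenylated RNA. Tools listed in the submitters' processing notes are edgeR 3.32.1, Subread 1.5.0, featureCounts and Trim Galore 0.4.0, with mm10 as build. Not given in the sources used here are strand setting, aligner and annotation.

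Tests on the counts used edgeR 4.0.16 under R 4.3.3. All 12 libraries entered a robust quasi-likelihood fit of 4 group means, with TMM scaling over gene rows (relative scale) and the default count filter, which left 15281 genes. Benjamini-Hochberg adjustment of p-values ran over all of them, with a threshold of 0.05, and 5 comparisons were made. The per-cell scale used the ERCC total times a TMM factor over ERCC rows. Fold changes are log2 ± SE, and the script was tested on simulated data. Alternatives were DESeq2 1.42.0 (test and size factors), no filter, ERCC scaling, a replicate term, fits of 2 groups and leaving out each library.

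Gene positions came from GENCODE annotation on GRCm38 and promoters from RefSeq. Among the genes, 26 share exon positions with another gene, 22 of them with one on the opposite strand. Named were, per comparison and complex, the 3 called genes with the greatest change, called genes moving against their complex, genes called for the difference of both effects, and fixed core subunits and isoform families; from related lists, up to 3 called genes. Nrf1, Gabpa and Yy1 were named beside these after their values were seen. Members and lists were chosen with earlier results of these data known. The values of some genes are not reported here.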

Additional observations from a re-analysis of the deposited data

Results flagged for a closer look

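For 6 genes the effect of pausing differed between KO and WT cells by the interaction test of the edgeR fit (Benjamini-Hochberg adjusted p under 0.05). The difference, KO minus WT on the log2 scale, was 1.84 for Atp5f1, 0.90 for Atp5e, 0.61 for Cox6a1, 0.59 for Cox7a2l and 0.46 for Sdhd. For Cox7b2 the fitted difference was -5.78, but it depends on the small count that the fit adds, since WT FBS held 1 count over its 3 libraries, so the counts are the better guide. Atp5f1, Cox7a2l and Cox7b2 stayed called without any 1 library. Atp5e was lost without WT paused replicate 3, and Cox6a1 and Sdhd were lost without almost any library other than WT FBS replicate 1. With groups of 3 libraries, single outlying libraries were not tested for.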

How the results depend on the processing

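Counts of genes called higher or lower moved with the processing as follows, each against the counts given in the results. With ERCC scaling, 0 genes were higher and 73 lower on pausing in WT cells, 0 higher and 63 lower in KO cells, 2 lower in KO FBS, 0 lower in KO paused against WT paused, and 1 above 0 for the difference of both effects. With only the groups compared in the fit, 41 were lower on pausing in KO cells and 14 in WT cells, against 31.0% and 11.1% of the genes tested. In fits of the same kind 13 were lower in KO FBS, against 3298 of 14951 genes tested. In KO paused against WT paused 26 of 74 were higher and 20 lower, against 4977 and 4775 of 14364 genes, so the share called higher was near the background. DESeq2 size factors and the DESeq2 test each called 3 higher on pausing in KO cells and 2 higher in KO FBS. Shares over all genes are not given for these fits or for the replicate block. With the replicate block, 2 were higher in KO FBS and 10 above 0 for the difference. The numbers are not given as pairing the libraries: same-numbered libraries correlated by -0.02 to 0.27 in their deviations from group means, over 0.1 in 10 of 18 pairs, although 10 of 12 libraries correlated best with one of their own number. Every pair of replicate 1 libraries was at 0.13 to 0.27, and every pair of replicate 2 libraries at -0.02 to 0.08. The filter changed no such count by more than 1.5 times.

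Leaving out 1 library at a time, between 3 and 5 genes were higher and 7 to 42 lower on pausing in KO cells, 1 to 2 higher and 19 to 70 lower in WT cells, 1 to 2 higher and 12 to 60 lower in KO FBS against WT FBS, 7 to 24 higher and 7 to 21 lower in KO paused against WT paused, and 2 to 50 above 0 and 1 below for the difference. The values of 42, 70, 60, 24, 21 and 50 were those without WT FBS replicate 1, and the cause was not tested. In that fit the shares of all genes were 30.4%, 31.3%, 35.5%, 33.3%, 32.0% and 24.2%, in the same order. The 12 without KO FBS replicate 1 stood against 25.3%. Shares for the rest of these counts are not given here. Named genes whose sign reversed with ERCC scaling included Ndufb11 (-0.41), Cox6a1 (-0.38), Cox7a2l (-0.21) and Cox8a (-0.74) on pausing in KO cells. Others were Cox6b2 (-0.19) on pausing in WT cells and Sdha (0.087) in KO paused against WT paused. Small changes also reversed when a library was left out. Cox8a did so on pausing in KO cells without KO FBS replicate 1. For Cox6b1 it was KO FBS against WT FBS without WT FBS replicate 1. With 3 libraries a group, a gene that was not called may still differ.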
